A study of Mus musculus with 10 samples.

Results

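The cytosolic ribosomal protein genes encode the protein part of the ribosome that translates nuclear messages. They were taken by name: an Rpl or Rps symbol with a number and at most 1 of the letters a, l, x or y, together with Rplp0, Rplp1, Rplp2 and Rpsa, at a mean WT input level of at least 10 RPKM. Of 80 genes with such a name, 79 met the level. They were 79 of the 30419 genes in the files and of the 4219 genes at that level. The excluded gene was Rpl3l, a striated muscle paralogue of Rpl3, at 0.525 RPKM. The members closest to the threshold from above were Rpl10l at 13.4 RPKM, Rpl29 at 35.1 RPKM and Rps15a at 39.1 RPKM. The 79 members were 31 genes of the small subunit, 45 of the large subunit and 3 of the stalk.

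N6-methyladenosine (m6A) is a modified base of messenger RNA, and Mettl3 encodes the methyltransferase that deposits most of it. The cells were J-1 mouse embryonic stem cells, an established line grown free of feeder cells. Their RNA was broken into fragments, of which an m6A antibody pulled down the IP sample, and RNA without the antibody step gave the paired input. The groups were Mettl3 KO (labelled mettl3 KO; 2 IP and 2 input libraries), WT (labelled mettl3 WT; 2 IP and 2 input libraries) and a first pair of 1 IP and 1 input library whose labels give no genotype. How the KO was made and whether it is 1 clone are not stated in the labels. Whether the replicates are separate cultures is not stated, and the p-values therefore rest on a spread between libraries that may be technical.

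Ribosomal protein messages are short, abundant and made from housekeeping promoters. Most start with a C followed by a run of pyrimidines, the 5′ terminal oligopyrimidine (TOP) tract, through which growth signals acting by mTOR and the RNA-binding protein Larp1 control their translation. In mammalian messages m6A is known to lie mainly near stop codons and in long exons, so a class of short messages is a natural contrast in such a data set.

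The start is the feature these genes are best known for, so the 10 bases before and 20 bases from the RefSeq start (assembly GRCm38.p6) are shown for 4 members that begin with a C and at least 4 pyrimidines and then for 6 members that stood apart in the IP. The first 4 were picked as examples of a match, so the sequences do not compare the groups. Rpl35a has other listed starts without the match, which are not shown. Rpl29, which also stood apart, was not found in the RefSeq table. Capitals mark runs of at least 5 pyrimidines, and the start is the 11th base.
Rpl35a, chr16:33056472-33056501, + strand: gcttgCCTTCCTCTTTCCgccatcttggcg
Rps27, chr3:90213629-90213658, - strand: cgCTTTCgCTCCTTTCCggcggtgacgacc
Rps6, chr4:86857348-86857377, - strand: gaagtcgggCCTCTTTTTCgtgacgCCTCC
Rpl38, chr11:114668570-114668599, + strand: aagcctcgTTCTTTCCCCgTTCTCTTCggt
Rpl10l, chr12:66284382-66284411, - strand: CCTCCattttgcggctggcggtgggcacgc
Rpl39l, chr16:10170218-10170247, + strand: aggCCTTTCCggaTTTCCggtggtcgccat
Rpl41, chr10:128549149-128549178, - strand: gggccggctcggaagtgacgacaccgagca
Rpl26, chr11:68901556-68901585, + strand: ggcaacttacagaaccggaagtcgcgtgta
Rps15, chr10:80292421-80292450, + strand: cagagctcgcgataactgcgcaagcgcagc
Rpl13a, chr7:45128726-45128755, - strand: cctgcgacaagaCCTCCTCCTTTCCCaggc
A C followed by 4 pyrimidines, read on the transcribed strand and counted over all listed starts of a gene, stood at the annotated start of 13 of the 59 members found in the RefSeq table (22.0%), against 3.50% of 1085 other short transcripts and 3.01% of all 27025 genes of the table. Within 5 bases of the start the shares were 47.5% of members, 24.4% of other short transcripts and 21.2% of all genes. A start that lies some bases off the annotated one is not counted by the first measure, so an absent match says only that these letters are not in the window.

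The files hold scaled coverage in 1510223 exon windows and no read counts, so depth is known only as a relative value, from the total divided by the smallest value of a library. Relative to the first pair, the KO IPs reached 0.0644 and 0.0606 and the WT IPs 0.159 and 0.0712 of the depth, and the inputs of KO and WT lay between 0.284 and 0.516. Mettl3 had a mean input coverage of 3.14 and 3.38 in KO, against 4.79 and 4.67 in WT, a log2 difference of -0.43 (SE 0.0720, limma adjusted p = 0.00259). The deleted part of the gene is not given in the labels, so this checks the direction of the labels only. All 10 embryonic stem cell markers were above 1 in every input (summed 2305 and 2157 in KO, 2817 and 2906 in WT). The 8 feeder markers summed to 2.90 and 2.56 in KO and 3.04 and 2.68 in WT. The 5 trophectoderm markers, of which 2 reached a coverage of 1, summed to 19.8 and 20.8 in KO and 7.49 and 7.003 in WT, and their part in the results below was not tested. In bulk RNA, fewer cells of a type and less RNA per cell cannot be told apart.

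The first pair stood apart for these genes before any comparison. The members' median coverage was 12.9 in the first input, against 318 and 346 in the KO inputs and 321 and 318 in the WT inputs. The first input lay under 10% of the mean WT input in 47 of 79 members, against 141 of 1535 other short transcripts. Only the first pair's column names carry the word "unique"; what it stands for is not stated, and its part in the difference was not tested. The first pair therefore enters no comparison here except where it is named.

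Ribosomal protein genes took up a far smaller share of the IP than of the input in every pair. They held 1.58% and 1.85% of all coverage in the KO IPs, against 5.16% and 5.62% in the KO inputs. In WT they held 1.39% and 1.25% in the IPs, against 5.09% and 4.91% in the inputs. In the first pair the shares were 0.467% in the IP and 1.30% in the input. In KO and in WT every IP share lay below every input share.

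For each gene the log2 of IP over input was computed from mean coverage with a pseudocount of 1 and set against the median gene of the same library, so 0 is the median of the 4219 genes. The members' median was -1.31 and -1.21 in the KO pairs and -1.67 and -1.88 in the WT pairs. The other short transcripts, 1535 genes with 10 to 41 windows (the 5th to 95th percentile of the members), had medians of -0.05 and -0.05 in KO and -0.15 and -0.16 in WT. Members lay below the short-transcript median of their library in 73 and 71 cases in KO and in 71 and 70 cases in WT. They lay below its 5th percentile in 15 and 16 cases in KO and in 30 and 30 cases in WT, of 79.

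**Figure D1:**
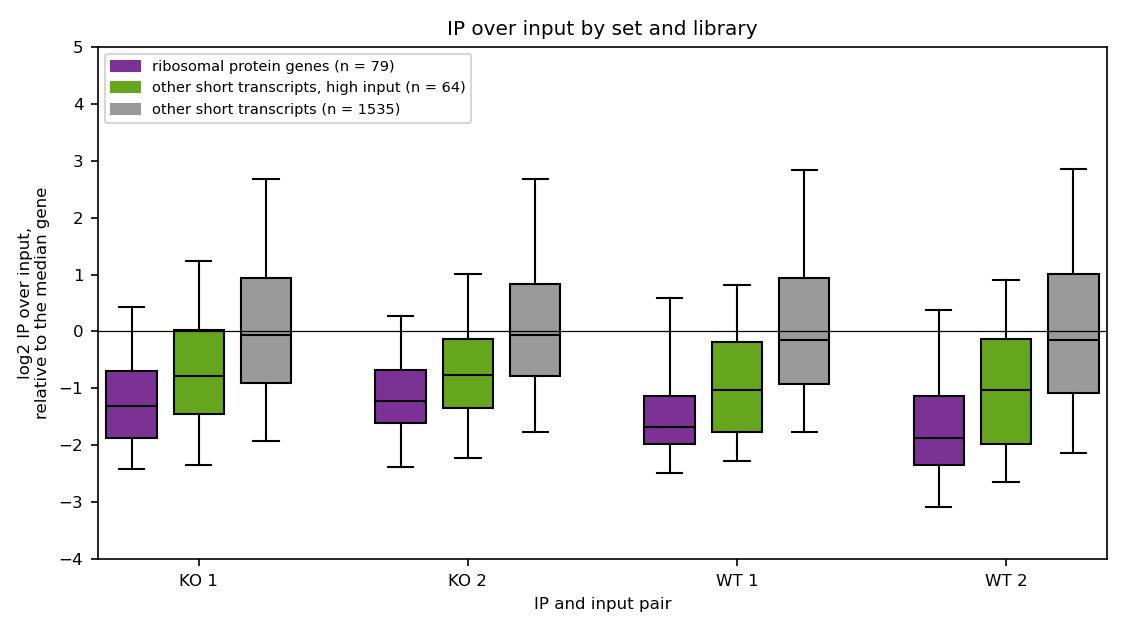
The log2 IP over input relative to the median gene is plotted for 3 sets of genes in the KO and WT pairs; boxes are quartiles with the median as a line, and whiskers run from the 5th to the 95th percentile. The ribosomal protein genes have the lowest median in each of the 4 pairs, from -1.88 to -1.21, with short transcripts of high input between them and all other short transcripts.

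Against the median gene, 65 members were lower and 4 higher in KO (limma, adjusted p under 0.05; over all genes 35.7% were lower and 38.6% higher). In WT 69 members were lower and 5 higher (38.8% and 41.4% over all genes). Set against the median of the other short transcripts in WT, 66 members were lower and 5 higher, while 33.8% of all genes were lower and 44.5% higher. The difference of the medians of members and other short transcripts in WT was -1.62. Input level moved with the ratio, and its part in the result was not tested. The 64 other short transcripts whose input reached the members' 25th percentile had a median of -0.73 in KO and -1.03 in WT. Against those, 44 members were lower and 13 higher in WT (9.01% and 64.7% of all genes), with a difference of medians of -0.75.

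The measure of coverage also mattered. By the gene's median window instead of its mean, 14 members were lower and 19 higher in KO (25.2% and 26.3% of all genes by the same measure), and 23 were lower and 6 higher in WT (13.5% and 22.1%). The members' own uncentred medians hardly moved between the measures: -1.71 and -1.55 by the mean and -1.91 and -1.71 by the median window in KO, and -1.92 and -2.20 by the mean and -1.87 and -2.22 by the median window in WT. The median gene moved instead, to -2.17 and -1.62 by the median window in KO, against -0.40 and -0.33 by the mean, and to -1.50 and -1.90 in WT, against -0.24 and -0.32. The IP coverage of the typical gene was thus uneven along its windows, with a median over genes of 4.43 to 5.96 for the middle window and 19.7 to 20.3 for the mean in WT. Members differed from other genes mainly in mean coverage, which includes the highest windows.

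Both subunits were low. Small-subunit members had a median of -1.55 in KO and -1.96 in WT, and 28 of 31 in KO and 29 of 31 in WT were lower, with none higher. Large-subunit members had a median of -1.05 in KO and -1.54 in WT, with 35 of 45 lower and 4 higher in KO and 37 lower and 5 higher in WT. The stalk proteins Rplp0, Rplp1 and Rplp2, which recruit the elongation factors, had ratios of -1.74, -0.39 and -0.67 in KO and -1.98, -1.17 and -1.33 in WT. All of them were lower in WT, while Rplp1 did not pass in KO (adjusted p = 0.0627).

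**Figure D2:**
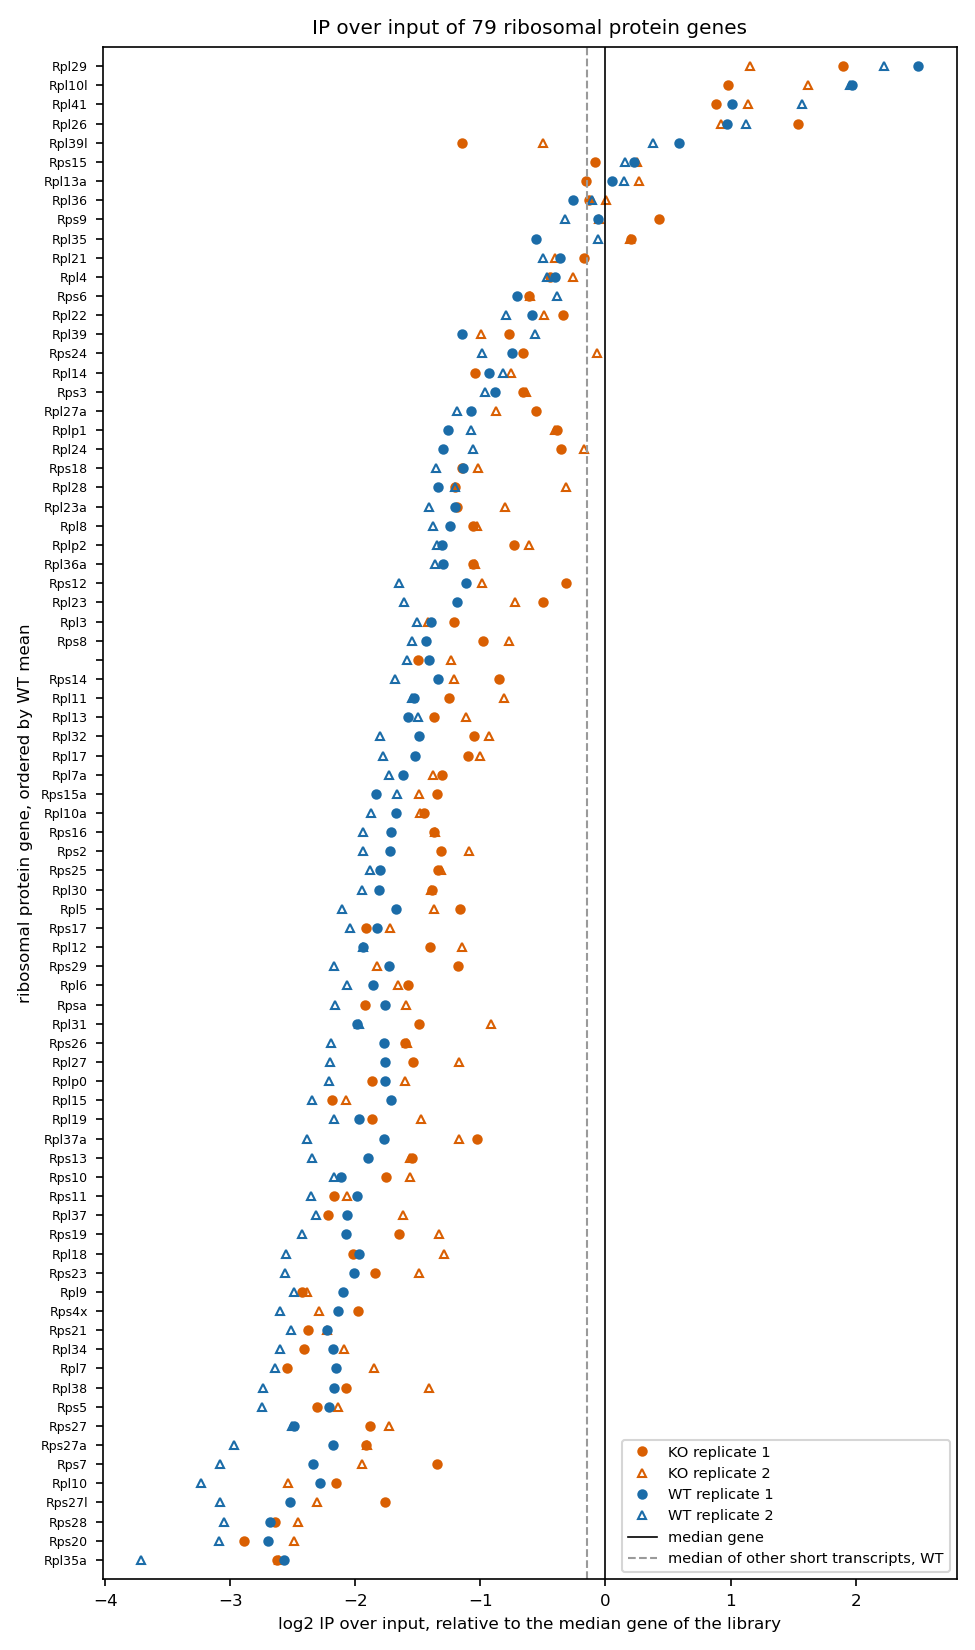
Each of the 79 genes is a row, ordered by the WT mean, with the log2 IP over input relative to the median gene in 2 KO pairs and 2 WT pairs. Most points lie left of the dashed line, the WT median of other short transcripts, and 7 genes lie right of it in the WT mean, led by Rpl29 at 2.36.

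The lowest members were genes of both subunits. Rpl35a, a large-subunit protein, had a ratio of -2.62 and -2.61 in KO and -2.57 and -3.71 in WT, a WT mean of -3.14 (SE 0.422, adjusted p = 0.000199). Rps20, a small-subunit protein of the head, had -2.89 and -2.49 in KO and -2.70 and -3.09 in WT (WT mean -2.89, adjusted p = 0.000155). Rps28, another small-subunit protein, had -2.65 and -2.46 in KO and -2.68 and -3.05 in WT (WT mean -2.86, adjusted p = 0.000121). In these 3 genes KO and WT libraries lay close together or interleaved. Rps27l, the paralogue of Rps27, averaged -2.03 in KO and -2.80 in WT. Rpl10, which joins the large subunit late in assembly, averaged -2.35 in KO and -2.76 in WT. Rps7 averaged -1.65 in KO and -2.71 in WT, and Rps27a, made as a fusion with ubiquitin, -1.91 in KO and -2.57 in WT. Rps27 averaged -1.80 in KO and -2.50 in WT, and 8 of its 14 windows have the same coverage as Gm9846, so reads of both cannot be told apart. All 8 were lower than the median gene in both genotypes by mean coverage. By the gene's median window the direction turned for Rpl35a, at 0.54 in KO and 0.065 in WT, and for Rps7 in KO, at 0.19.

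The coverage behind the low ratios was high. In Rps20, among the most abundant members, mean coverage was 73.5 and 115 in the KO IPs, against 728 and 823 in the KO inputs, and 89.97 and 66.6 in the WT IPs, against 697 and 718 in the WT inputs. In Rpl35a it was 28.1 and 30.2 in the KO IPs, against 235 and 240 in the KO inputs, and 29.7 and 12.4 in the WT IPs, against 215 and 219 in the WT inputs. Every IP value lay far below every input value of both genes.

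Across members the ratio showed little relation to length, and its relation to level differed between measures. In WT, Pearson's r with the log2 number of windows was 0.04 (Spearman's rho 0.08), and r with log2 input coverage was -0.30 (rho 0.02), over 79 genes of the same 2 pairs. Over the 1535 other short transcripts r with input coverage was -0.25 (rho -0.24). Input coverage is also the denominator of the ratio, so these are descriptions only. Members kept their order between genotypes, with r = 0.94 between the KO and WT means over 79 genes, and r = 0.93 between the KO pairs and 0.97 between the WT pairs.

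**Figure D3:**
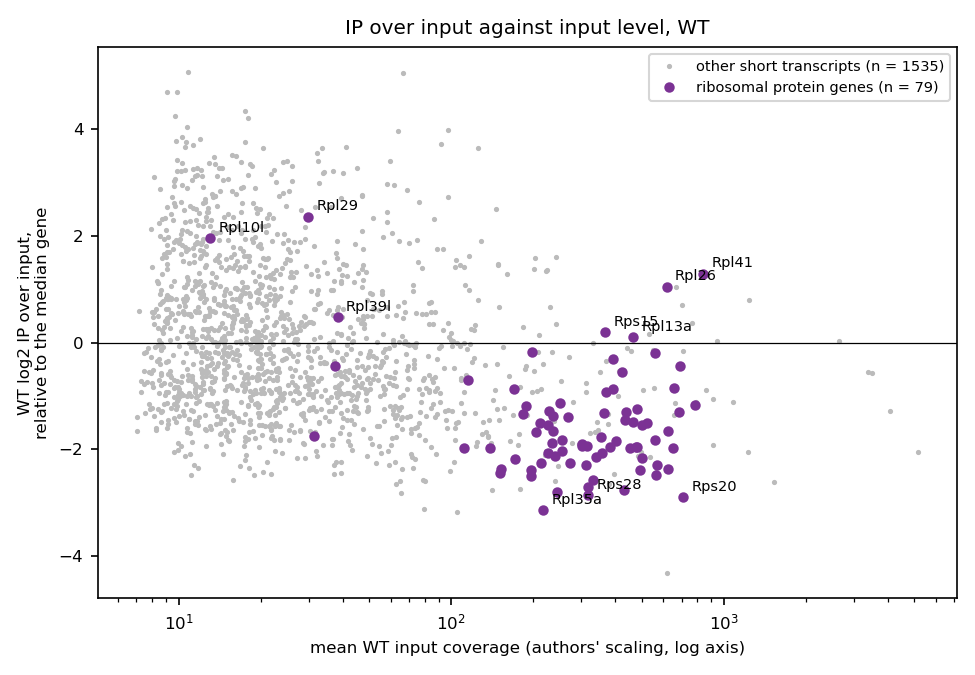
The WT log2 IP over input relative to the median gene is plotted against the mean WT input coverage (log axis) for 79 ribosomal protein genes and 1535 other short transcripts. The ribosomal protein genes gather at high input and below 0, and the named genes above 0 range from Rpl10l and Rpl29 at low input to Rpl41 and Rpl26 at the highest.

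Other gene classes give the scale, from lists chosen with earlier results of these data known. Mitochondrial ribosomal protein genes, whose products build the ribosome of the organelle, had a median of 0.28 in KO and 0.93 in WT, and 40 of 67 were higher and 16 lower in WT (Mrpl12 at 3.25 in KO and 3.66 in WT). Subunits of oxidative phosphorylation had a median of -0.80 in KO and -1.11 in WT, with 58 of 69 lower and 5 higher in WT. Proteasome subunits had -0.46 in KO and -0.95 in WT, with 22 of 32 lower and 5 higher in WT. Of 21 other transcripts known to start with a TOP tract, 13 were lower and 1 higher in WT, with a median of -0.40 in KO and -0.89 in WT. Among them Gnb2l1, whose product Rack1 sits on the small subunit, had -2.19 in KO and -2.43 in WT, and Eef2, the translocation factor, had 1.11 in KO and 1.099 in WT. Of 21 genes of ribosome biogenesis, 5 were lower and 8 higher in WT (median 0.65 in KO and 0.29 in WT), with nucleolin (Ncl) at 1.81 in KO and 1.59 in WT. Replication-dependent histone genes had a median of -0.41 in KO and -0.99 in WT, with 9 of 12 lower in WT. The 6 ribosomal protein names marked as pseudogenes had a median of -1.44 in KO and -1.96 in WT, with 5 lower in WT, and may share reads with members. For Rpl34, 7 of its 14 windows have the same coverage as Rpl34-ps1, so reads of both cannot be told apart.

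Of the 79 members, 7 exceeded the short-transcript median in WT, and 5 of them passed the test against the median gene. The first pair did not enter this count. There Rpl29 was at 0.17 (input coverage only 0.875), Rpl10l at 1.02, Rpl41 at 1.41 and Rpl39l at 0.075. Rpl26 was at -0.60, Rps15 at -0.93 and Rpl13a at -0.57, below the first pair's short-transcript median of -0.13. The first input coverage of these last genes was 201, 636 and 347. The reason for the difference was not tested. Rpl29, a heparin-binding large-subunit protein that mice can live without, had a ratio of 1.90 and 1.16 in KO and 2.50 and 2.23 in WT (WT mean 2.36, SE 0.171, adjusted p = 3.47e-06). Rpl10l, an intron-less paralogue of Rpl10 known from testis, had 0.98 and 1.62 in KO and 1.97 and 1.95 in WT (WT mean 1.96, SE 0.154, adjusted p = 6.08e-06). Rpl41, a very short basic peptide of the large subunit, had 0.89 and 1.14 in KO and 1.02 and 1.57 in WT (WT mean 1.29, SE 0.155, adjusted p = 0.000102). Every library of these 3 genes lay above the median gene. Rpl26, which lies near the exit tunnel of the large subunit, had 1.54 and 0.93 in KO and 0.97 and 1.12 in WT (WT mean 1.05, SE 0.157, adjusted p = 0.000354), and 11 of its 13 windows have the same coverage as Gm15772, so reads of both cannot be told apart. Rpl39l, the paralogue of Rpl39, had -1.15 and -0.50 in KO and 0.59 and 0.38 in WT (WT mean 0.48, SE 0.185, adjusted p = 0.0389); it was higher than the median gene in WT and lower in KO (adjusted p = 0.0036). The WT call of Rpl39l was lost without WT replicate 1 (adjusted p = 0.355) or WT replicate 2 (adjusted p = 0.176), with a pseudocount of 0.1 (adjusted p = 0.0535), with the gene's median window and without centring. Rps15, a small-subunit protein near the decoding centre, averaged 0.08 in KO and 0.19 in WT, and Rpl13a, also known for a role outside the ribosome in human cells, averaged 0.06 in KO and 0.10 in WT. Neither passed in either genotype, and both were below 0 without centring. The next members, Rpl36 at -0.06 in KO and -0.18 in WT, Rps9 at 0.19 in KO and -0.19 in WT and Rpl35 at 0.20 in KO and -0.31 in WT, did not pass either.

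Several high members carried their IP signal in part of the message. The window with the highest WT IP coverage of each member was taken, so its WT value is a description, while its KO value was not used in the choice. Rpl29, whose strand is not given, had this window in exon 4 of 4 in genome order, with an IP coverage of 767 and 482 in KO, against an input of 142 and 139, and 1027 and 813 in WT, against an input of 93.2 and 99.5. Outside the 3 windows around it, its ratio to the median gene was -0.61 and -1.72 in KO and -0.58 and -0.52 in WT. Its high mean thus came from a few windows at that end of the gene.

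Rpl26 had its highest window in exon 4 of 4, the last exon, with an IP coverage of 8658 and 7524 in KO, against an input of 1793 and 2807, and 5480 and 5425 in WT, against an input of 1565 and 1484. The rest of the gene was at -1.07 and -1.29 in KO and -1.27 and -1.21 in WT, lower than the median gene. Rps15 and Rpl13a followed the same pattern, with a last-exon window at 0.84 and 1.04 in KO and 1.32 and 1.15 in WT for Rps15, and at 0.96 and 1.32 in KO and 1.29 and 1.36 in WT for Rpl13a. The rest of Rps15 was at -1.57 and -1.42 in KO and -1.44 and -1.66 in WT. In these genes the last-exon window lay above the median gene in both genotypes while the rest of the message did not.

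Rpl41 and Rpl10l stayed above the median gene, as a mean, outside the 3 windows around the highest one. Outside the highest window and its neighbours, Rpl41 was at 0.73 and 1.08 in KO and 0.88 and 1.41 in WT. The highest window of Rpl41 lay in exon 1, its last exon, and the rest still held windows 1 and 2 of that exon. Window 2 had a WT IP coverage of 2814 and 4137, against an input of 1485 and 1620. In exon 3 of Rpl41 the WT IP coverage was 75.2 and 49.7, against an input of 110 and 105. In window 1 of exon 4 it was 151 and 335, against an input of 47.4 and 48.0. Rpl10l was at 0.57 and 1.13 in KO and 1.21 and 1.13 in WT outside a highest window that stood at 1.87 and 2.73 in KO and 3.50 and 3.30 in WT. Its rest still held flanks of that peak, as window 3 had a WT IP coverage of 97.2 and 98.8, against an input of 20.3 and 19.6. The middle of Rpl10l was low. In window 10 the IP coverage was 0 and 0 in KO, against an input of 12.9 and 8.42. In WT it was 2.69 and 0.526 there, against an input of 14.9 and 14.0. Rps9, named after its values were seen, also had a last-exon window, at 1.96 and 1.45 in KO and 1.55 and 1.11 in WT, with the rest at -0.51 and -1.02 in KO and -1.23 and -1.36 in WT. Other members had the highest window elsewhere. In Rpl24 it lay in the first exon, at 2.73 and 1.75 in KO and 1.39 and 2.09 in WT. The rest of Rpl24 was at -1.89 and -0.96 in KO and -1.93 and -2.15 in WT. In Rpl35 it lay in an internal exon, at 1.24 and 0.66 in KO and -0.35 and 0.51 in WT. By the median window in place of the mean, Rpl29 was at -0.08 in KO and -0.18 in WT, and Rpl26 at -0.98 in KO and -1.63 in WT.

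**Figure D4:**
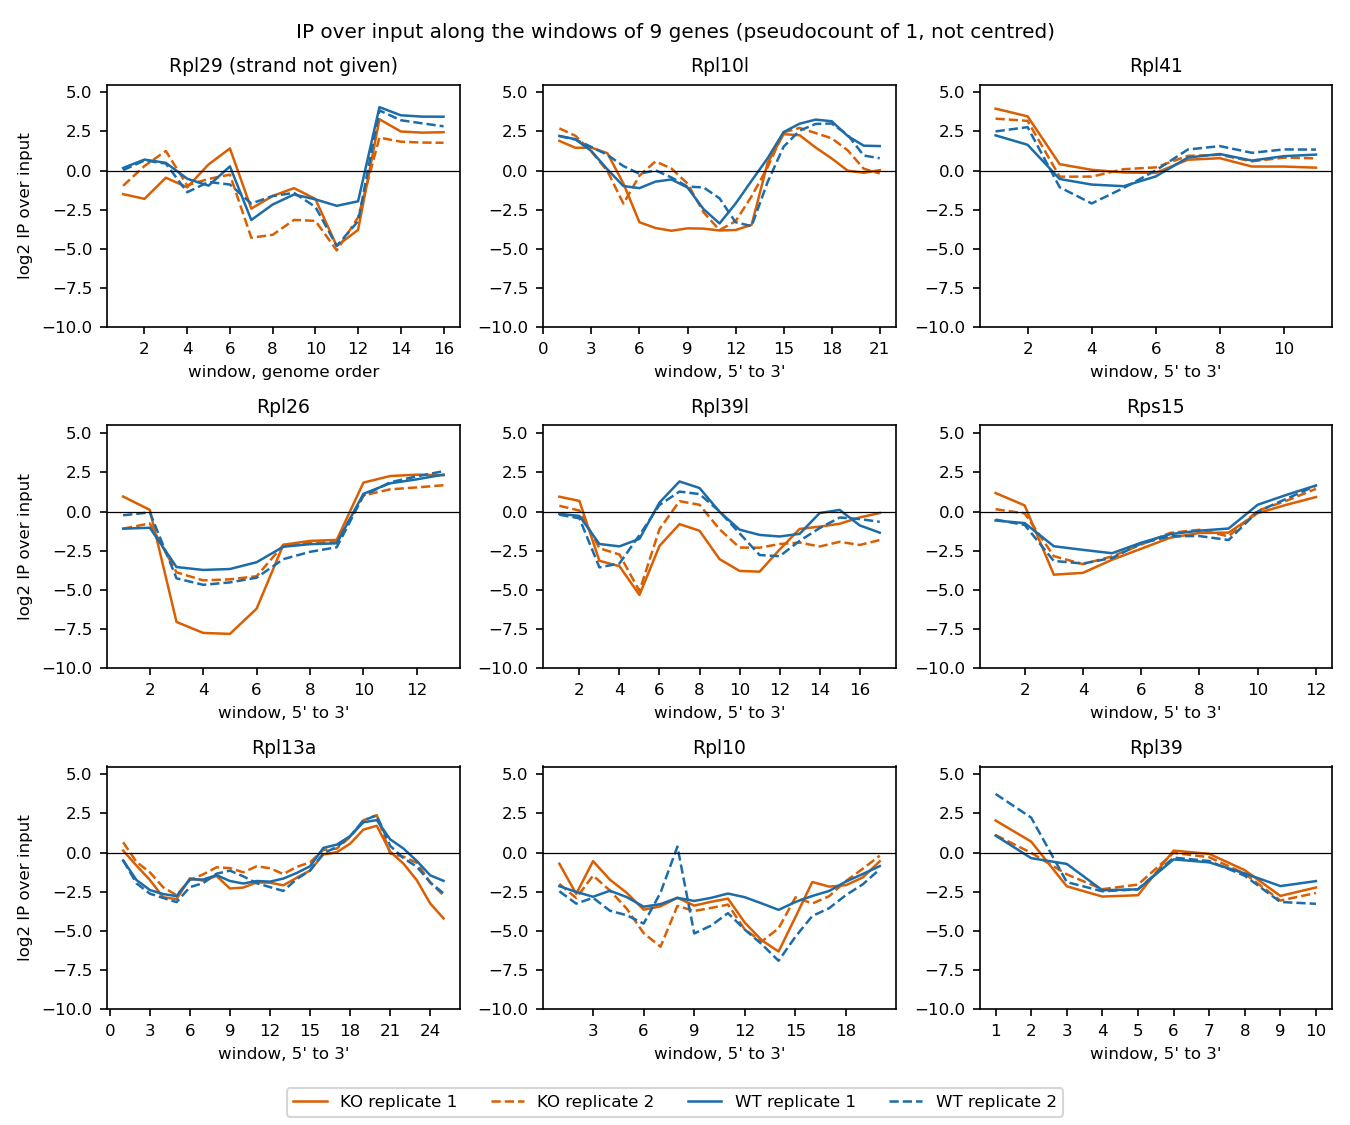
The log2 IP over input of each window (pseudocount of 1, not centred) is plotted along 7 high members and along Rpl10 and Rpl39, with 2 KO and 2 WT pairs. Rpl29, Rpl26 and Rps15 climb in exon 4 in all 4 pairs, Rpl39l has a peak near window 7 that is higher in both WT pairs, and Rpl10 stays below 0 in nearly all windows.

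Over all members, the highest window lay in the last exon in 32, in an internal exon in 23 and in the first exon in 3 of those whose strand the RefSeq table gives. One more has a single exon, and for 20 no strand was given. The window was chosen by IP coverage and not by IP over input, and other transcripts were not counted. These counts therefore do not show where members are enriched. In Rpl10, for example, the chosen last-exon window stood at -1.69 and -1.48 in KO and -1.61 and -2.39 in WT. When each message was divided into 5 equal parts from 5′ to 3′, the members' medians in WT were -1.74, -2.00, -1.78, -1.42 and -1.22 in replicate 1 and -1.69, -2.32, -2.06, -1.81 and -1.62 in replicate 2 (59 genes). In KO they were -1.08, -1.93, -1.56, -1.28 and -1.25 in replicate 1 and -0.81, -1.63, -1.42, -1.11 and -0.997 in replicate 2. The 1085 other short transcripts with a strand had -0.41, -1.15, -1.05, -0.58 and -0.17 in WT replicate 1 and 0.15, -1.07, -0.98, -0.67 and -0.48 in KO replicate 1. In those libraries members lay below the other short transcripts in each of the 5 parts, and in both sets the 2nd part was the lowest. Against the 29 short transcripts of high level with a strand, how close the medians came in the middle of the message differed between libraries. In WT replicate 1 the 3rd and 4th parts were at -1.78 and -1.42 in members, against -1.71 and -1.41 in those transcripts. In WT replicate 2 these parts were at -2.06 and -1.81 in members, against -1.91 and -1.26. In KO replicate 1 they were at -1.56 and -1.28, against -1.39 and -1.30, and in KO replicate 2 at -1.42 and -1.11, against -1.43 and -1.26. At the ends the gap was wider. The 1st and 5th parts of those transcripts were at -0.90 and -0.56 in WT replicate 1 and -0.48 and -0.49 in WT replicate 2. In KO they were at 0.01 and -0.38 in replicate 1 and 0.11 and -0.51 in replicate 2. Members lay below those transcripts in the 1st, 2nd and 5th parts in every KO and WT library. No difference between parts was tested.

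Local peaks were counted by the authors' own window score, called winscore, which divides a window's IP over input by that of the gene's median window on a log2 scale. In the first IP, 4 members held a run of at least 2 windows whose winscore reached 2, 5.06%, against 26.4% of other short transcripts, 1.56% of the 64 of high level and 44.9% of all genes at this level. They were Rpl22, needed for T cell development, with 3 windows in exon 6; Rps13, with 2 windows in exon 6; Rpl39, with 2 windows in exon 3; and Rpl10l, with 2 such runs of 2 windows each. Coverage of members was low throughout the first pair: the median over members of the gene's median window was 1.04 in the IP and 2.15 in the input, against 7.96 and 14.1 in other short transcripts. With a pseudocount of 1 in the score, such coverage holds the score down, so these shares do not show that members lack peaks. Where both libraries of a genotype had to pass, 26 members had a run in KO (32.9%). The shares there were 66.8% of other short transcripts, 59.4% of those of high level and 79.5% of all genes. In WT 27 members had a run (34.2%), against 62.3%, 51.6% and 75.8%. The gene's median IP window, which enters the score, also differed between the sets. Its median was 49.4 in members and 5.80 in other short transcripts in KO replicate 1, and 48.8 and 8.02 in WT replicate 1. The part of this difference in the shares was not tested, so they do not show fewer peaks in members.

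The 3 pairs whose names differ by a final l were set side by side, with no test of the differences. Rpl10l averaged 1.30 in KO and 1.96 in WT, whereas Rpl10 averaged -2.35 in KO and -2.76 in WT. Rpl39l averaged -0.82 in KO and 0.48 in WT, and Rpl39, which lines the exit tunnel, -0.88 in KO and -0.85 in WT. Rps27l and Rps27 were both low, at -2.03 and -1.80 in KO and at -2.80 and -2.50 in WT. The members whose names end in a are distinct proteins rather than copies, and they too could differ: Rpl35a averaged -2.62 in KO and -3.14 in WT, and Rpl35 0.20 in KO and -0.31 in WT, while Rps15a averaged -1.42 in KO and -1.75 in WT, and Rps15 0.08 in KO and 0.19 in WT. Rpl13a averaged 0.06 in KO and 0.10 in WT, and Rpl13 -1.24 in KO and -1.54 in WT.

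The comparison of KO with WT asked whether the ratio of these genes depends on Mettl3. No member passed the test of KO minus WT in either direction (limma, 0 of 79 at adjusted p under 0.05), where 0.545% of all genes were lower and 0.213% higher. At an unadjusted p under 0.05, 6 members were higher and 3 lower. The mean ratio was higher in KO in 68 of 79 members (86.1%, against 48 of 64 short transcripts of high level and 48.6% of all genes), with a median difference of 0.34, against 0.27 in short transcripts of high level, 0.03 in all other short transcripts and -0.01 in all genes. In 46 members both KO pairs lay above both WT pairs (24.5% of all genes), and in 3 both lay below (27.9%). Both KO pairs also lay above in 33 of 64 short transcripts of high level and in 38 of 69 oxidative phosphorylation subunits. They lay below in 9 and 2 of those.

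Among the members that were lower in KO, Rpl39l had the smallest p, at a difference of -1.31 (SE 0.262, limma adjusted p = 0.0567), and both KO pairs lay below both WT pairs. Its highest window, in exon 3 of 3, had an IP coverage of 21.4 and 59.0 in KO, against an input of 38.1 and 36.8, and 256 and 199 in WT, against an input of 66.7 and 81.3. Rpl29 had a difference of -0.84 (adjusted p = 0.111) and Rpl10l of -0.66 (adjusted p = 0.146), and in both genes both KO pairs lay below both WT pairs. Rpl41 had -0.28 (adjusted p = 0.508), with KO and WT overlapping. In the other direction Rpl24, a protein of the bridge between subunits, had 0.92 (adjusted p = 0.0982), with -0.36 and -0.17 in KO and -1.30 and -1.06 in WT. Rplp1 had 0.78 (adjusted p = 0.13), Rpl23 0.79 and Rpl37a 0.98 (adjusted p = 0.167 each). Without KO replicate 1, 3 members were higher and 2 lower (5.62% and 9.36% of all genes), and without KO replicate 2, 6 were higher and 3 lower (10.3% and 13.4%), so the result of 0 rests on both KO pairs being kept. With ratios left uncentred 2 members were lower and 0 higher (3.77% and 0.901% of all genes), and with centring on the other short transcripts 1 was lower and 0 higher (1.8% and 0.284%).

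Input levels of ribosomal protein genes differed little between KO and WT. The members' median coverage was 318 and 346 in the KO inputs and 321 and 318 in the WT inputs. Of the 79, 6 rose and 3 fell in KO (limma, adjusted p under 0.05), while 13.0% of 11211 genes rose and 13.6% fell, so the members' share was not above that of all genes. The median log2 difference was 0.12, against 0.05 in other short transcripts and -0.00 in all genes, and the mean was higher in KO in 65 members (82.3%), against 70.3% of short transcripts of high level, 82.7% of mitochondrial ribosomal protein genes and 49.0% of all genes. Both KO inputs lay above both WT inputs in 48 members (31.7% of all genes) and below in 6 (34.0%). They also lay above in 35 of 64 short transcripts of high level and in 50 of 75 mitochondrial ribosomal protein genes. In those sets they lay below in 13 and 6.

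**Figure D5:**
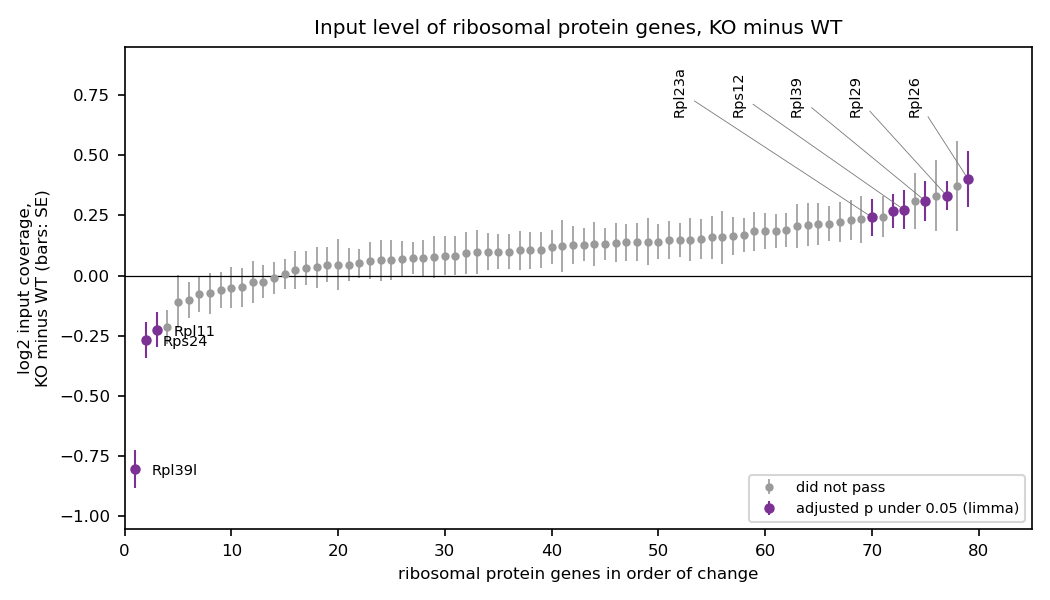
The log2 difference of input coverage, KO minus WT, is plotted for 79 ribosomal protein genes in order, with bars for the standard error of the fit. Coloured points passed the test: 3 genes lie below 0, with Rpl39l at -0.80 the farthest, and 6 lie between 0.24 and 0.40.

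Rpl39l fell most. Its input coverage was 19.9 and 23.3 in KO and 37.8 and 38.8 in WT, a log2 difference of -0.80 (SE 0.0784, adjusted p = 0.000123), and every KO input lay below every WT input. Its paralogue Rpl39 rose, with 791 and 831 in KO and 647 and 661 in WT (log2 difference 0.31, adjusted p = 0.0227). Rps24, mutated in Diamond-Blackfan anaemia in humans, fell with 322 and 331 in KO and 390 and 397 in WT (log2 difference -0.27, adjusted p = 0.0255). Rpl11, a partner of Mdm2 when ribosome assembly is disturbed, fell with 188 and 200 in KO and 234 and 220 in WT (log2 difference -0.23, adjusted p = 0.047).

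Among the rises, Rpl26 had 718 and 927 in KO and 635 and 600 in WT (log2 difference 0.40, adjusted p = 0.0316), and the KO inputs were far apart. Rpl29 had 38.3 and 37.6 in KO and 29.3 and 30.5 in WT (0.33, adjusted p = 0.00447), so 2 of the members with the highest ratios also rose in input. Rps12 and Rpl23a, a protein at the exit tunnel, rose by log2 differences of 0.27 and 0.24 (adjusted p = 0.0353 and 0.0425). The 3 most abundant members did not pass: Rpl41 had 976 and 1009 in KO and 845 and 831 in WT (adjusted p = 0.0584), Rplp1 784 and 981 in KO and 804 and 767 in WT, and Rps20 728 and 823 in KO and 697 and 718 in WT. Rpl10l was level, with 13.3 and 13.0 in KO and 13.1 and 13.0 in WT.

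The counts of input changes moved with single libraries. Without KO replicate 1, 23 members rose and 3 fell (13.0% and 15.1% of all genes in that fit). Without KO replicate 2, 3 rose and 4 fell (10.7% and 10.6%). Without WT replicate 1, 2 rose and 1 fell (6.77% and 8.78%), and without WT replicate 2, 1 rose and 1 fell (9.88% and 7.33%). Rpl39l passed in each of these 4 fits. With no filter on low coverage, however, 0 members rose and 0 fell by limma (0.00986% and 0.0394% of 30419 genes), and Rpl39l no longer passed (adjusted p = 0.138). By the deposited RPKM values, 4 members rose and 69 fell in KO (40.9% of 12245 genes rose and 24.1% fell), the opposite picture. Over the 79 members, Pearson's r of the KO columns was 0.94 and 0.95 with the IP coverage of KO and 0.70 and 0.72 with its input coverage, and r of the WT columns with WT input coverage was 0.99 each (log2 values). The RPKM columns of KO are therefore not used as input levels here.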

How the data were processed

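Per the submitters' processing notes, reads were aligned with TopHat 1.1.3 to mouse build mm9; per the labels' protocols, libraries were strand-specific (dUTP). Read filters, gene models and the treatment of multiply placed reads are not stated in the labels or headers. The growth protocol also mentions culture without LIF, without naming libraries. Per the file headers, the authors deposited coverage (a signal) per exon window, its gene median and a log2 winscore, which recomputed as the log2 ratio of IP over input against gene medians (pseudocount 1) to within 1e-12 in all 1510223 windows. A deposited table gives RPKM values, used for the member rule. Coordinates and start sequences come from RefSeq (GRCm38.p6), while the files are in mm9 and give no coordinates. Exons are numbered in genome order.

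Mean coverage per gene was computed for each library. limma 3.58.1 (R 4.3.3; lmFit, eBayes with trend, Benjamini-Hochberg over all genes, threshold 0.05) was run on log2((IP + 1)/(input + 1)), centred per library on 4219 genes with a mean WT RPKM of at least 10, and on log2(input coverage + 1) in the 11211 genes reaching 1 in any 2 of the 4 inputs; the scale understates changes of low genes. Tests were tried on simulated data. Tables used Python 3.11.15, pandas 2.3.3, numpy 2.4.6 and scipy 1.17.1; figures used matplotlib 3.10.9. Members, lists and tests were chosen with earlier results of these data known. Genes were named by rule: Mettl3; the 8 lowest and 8 highest members in WT ratio; members with a region or above the short-transcript median; members past the input test; 4 in each direction of smallest p for the ratio, KO minus WT; the 3 most abundant; name pairs; and up to 4 per list. Rps9 was named after its values were seen, and 1 member that the rule names is not reported here by name. Alternatives changed the pseudocount, coverage measure, filters, centring, short-transcript range, replicates and region rule.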

Additional observations from a re-analysis of the deposited data

How the results depend on the processing

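Replicates are 2 per group and the IPs are shallow, so a call that fails does not show equality; a lone library left by omission is assumed to vary like the others. Same-numbered KO and WT libraries did not deviate together (correlation 0.060 for the ratio and -0.027 for the level), so numbers pair nothing; with a replicate block, 0 members changed in the ratio and 6 rose and 2 fell in input. Of the recomputed counts and medians, 82 stayed within 1.5 times or the replicate spread, 8 moved, 10 were larger and 11 smaller; of the values of single genes, 497 kept direction and call, 25 gained and 50 lost the call and 36 changed sign. By the gene median coverage, 23 members were lower in WT, 14 lower and 19 higher in KO, and 32 lower than other short transcripts, with a difference of medians of -0.54 and 1 fall in input; the median gene moves more than the members here. That difference was -2.07 with a minimum RPKM of 1, -1.80 over the members' full window range and -0.75 against short transcripts of high level, where 13 members were higher. For KO minus WT of the ratio, 2 members were lower with no centring and 1 with centring on other short transcripts; leaving out a replicate gave 0 to 3 lower and 0 to 6 higher. For input, 69 fell by RPKM and none rose or fell (0 and 0) with no filter on low values; leaving out a replicate gave 1 to 4 falls and 1 to 23 rises. Regions of the first IP were present in 20 members at a winscore of at least 1, 0 at 3 and 1 with at least 3 windows, and in 27 by both WT IPs. By the gene median coverage these changed sign: Rpl35a (0.54 in KO, 0.065 in WT), Rpl36 (0.80 in KO, 0.44 in WT, 0.25 against short transcripts), Rps15 (-0.26 in KO, -0.12 in WT, -0.32 against short transcripts), Rpl26 (-0.98 in KO, -1.63 in WT, -1.83 against short transcripts), Rpl29 (-0.081 in KO, -0.18 in WT, -0.37 against short transcripts, and 0.10 for KO minus WT), Rps7 (0.19 in KO) and Rpl41 (0.38 for KO minus WT). With a minimum RPKM of 1, Rpl13a (-0.41 in KO, -0.46 in WT, -0.20 against short transcripts), Rps15 (-0.38 in KO, -0.37 in WT, -0.11 against short transcripts) and Rpl39l (-0.079 in WT) did; with no centring, Rpl13a (-0.31 in KO, -0.18 in WT) and Rps15 (-0.28 in KO, -0.091 in WT). Without KO replicate 1 Rpl36 was at 0.0078 and Rpl13a at 0.27 in KO; without KO replicate 2 Rpl36 was at -0.13, Rpl13a at -0.15 and Rps15 at -0.087 in KO; without WT replicate 1 Rpl36 was at 0.053 against short transcripts, and against those of high level at 0.84. By RPKM the input differences of Rpl23a, Rps12 and Rpl39 were -1.79, -1.68 and -1.18. The causes were not tested.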
